A study of Drosophila melanogaster with 22 samples.

Results

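The open regions of the X chromosome in fly hearts were taken from ATAC-seq peak lists, in which a transposase marks DNA that is free of nucleosomes. Peaks of 22 heart libraries of Drosophila melanogaster were merged where they overlapped by at least 1 bp, and a merged region on X was kept when 3 or more libraries had a peak in it. This left 2148 X regions of 12028 regions in all, or 17.9%. Arms 2L, 2R, 3L and 3R held 9755 regions, called autosomal below, and the small chromosome 4 held 111. A further 399 merged X regions had a peak in fewer than 3 libraries and were not used, and 85 of the kept X regions had a peak in exactly 3.

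The hearts came from 6 groups. The white-eyed strain w1118 gave hearts at 1 week (3 libraries) and at 5 weeks (3 libraries). The other 4 groups were 1-week flies from crosses to Hand-Gal4, a driver active in the heart: crosses to attp2 (4 libraries) and attp40 (3 libraries) gave the controls, and crosses to LamC RNAi (4 libraries) and LamB RNAi (5 libraries) gave heart knockdowns of the A-type and B-type lamin, proteins of the nuclear envelope. All 16 libraries from crosses share the driver, which the w1118 groups lack, so strain and driver cannot be told apart between them. The study's design text gives 3 LamC RNAi and 4 LamB RNAi libraries, against 4 and 5 in the labels. It states as the purpose to find accessible regions shared between ageing and each knockdown. The sex of the flies and how many hearts went into a library are not given in the labels, and no label says whether the libraries of 1 group are independent pools, so p-values measure the spread between libraries, which may be technical.

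In flies, males have a single X and females a pair. In males the MSL complex, guided by the non-coding RNAs roX1 and roX2, spreads over active X genes, and its acetyltransferase mof acetylates histone H4 and raises their transcription. Sxl, an X gene switched on by X-linked counters such as sisA, sc and run, keeps this system off in females. Lamins line the nuclear envelope, where silent chromatin is tethered.

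Each deposited list held 8491 to 12395 peaks, of which 1568 to 2222 lay on X. The strongest 8491 peaks of each library by the deposited −log10 p were kept, so that every list was equally long. A region's rank score in a library was 1 minus its rank over the list length, near 1 for the strongest peak and 0 where no peak was ranked. A score of 0 can hide a weaker deposited peak below the cut. The score orders regions within a library and is not a quantity of open DNA, and in a bulk heart sample fewer cells of a type and less open chromatin per cell cannot be told apart. Read depth is unknown, since the lists hold no read counts. As a check of the tissue, 6 of 8 heart and muscle genes chosen for it, all autosomal, had a ranked peak in every library: Hand, pnr, mid, H15, Mhc and sns. The matrix gene prc had one in 17 libraries. The heart identity gene tin had no region within 500 bp, and its absence from the regions was not followed further.

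X regions lay mostly at or in genes. A gene end, within 500 bp of either end of an annotated protein-coding gene, held 1085 X regions (50.5%). Gene bodies held 920 (42.8%), 95 (4.42%) lay within 5 kb of a gene and 48 (2.23%) near none. The autosomal shares were 53.9% at gene ends, 37.8% in bodies, 4.96% within 5 kb and 3.34% near none. X regions lay more in gene bodies and less at gene ends than autosomal ones, and X genes were longer, with a median of 2520 bp against 2080 bp. A region counted as a gene end may lie at either end, since the annotation used gives no strand.

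The density of X regions per length was close to that of the autosomes, and per gene it was higher. X carried 91.3 regions per Mb against 89.7, with 93.3 against 107 protein-coding genes per Mb. This gave 97.8 X regions per 100 protein-coding genes, above the 83.8 of the autosomes and above each arm, which ranged from 79.2 on 2L to 89.9 on 3L. Chromosome 4 had 139. X regions covered 1744 kb, or 7.41% of the chromosome, against 7.09% of the autosomes. Their median width was 679 bp against 672 bp, and the median gap between neighbouring regions 3614 bp against 3711 bp. Of 2197 protein-coding X genes, 1431 (65.1%) had an open end, against 62.4% of autosomal genes, and 719 (32.7%) had no region at all, against 35.3%. These are counts over single chromosomes, with no replicate error.

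A minority of X genes held many regions each. There were 839 genes with 1 region, 385 with 2, 102 with 3 and 17 with 10 or more. CG43658, a gene of 105 kb, held 22 regions, of which 4 had a peak in all 22 libraries. Tlk, a chromatin-linked kinase, held 18 in 69.8 kb, 13 of them in all libraries. The cell adhesion gene kirre, known from muscle fusion and the nephrocyte filtration slit, held 17 over 394 kb. The phosphodiesterase gene dnc held 16 and the transcription factor gene mamo 14. Of 58 X microRNA genes, 13 overlapped a region or lay within 500 bp of one.

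Along the chromosome, the 23 full windows of 1 Mb held 26 to 135 X regions, with a median of 103. The densest was chrX:13000001-14000000, with 135 regions and 102 genes. The sparsest was chrX:22000001-23000000, the last full window, with 26 regions and 46 genes. Windows with more genes held more regions (Pearson's r 0.744, Spearman's rho 0.839 over 23 windows, a description across neighbouring windows of a single chromosome). The window chrX:3000001-4000000 held the most regions per gene, 100 regions for 55 genes. Mean rank score did not follow the number of regions closely: it was lowest, 0.255, in chrX:14000001-15000000 with 57 regions and highest, 0.430, in chrX:12000001-13000000 with 71.

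**Figure D1:**
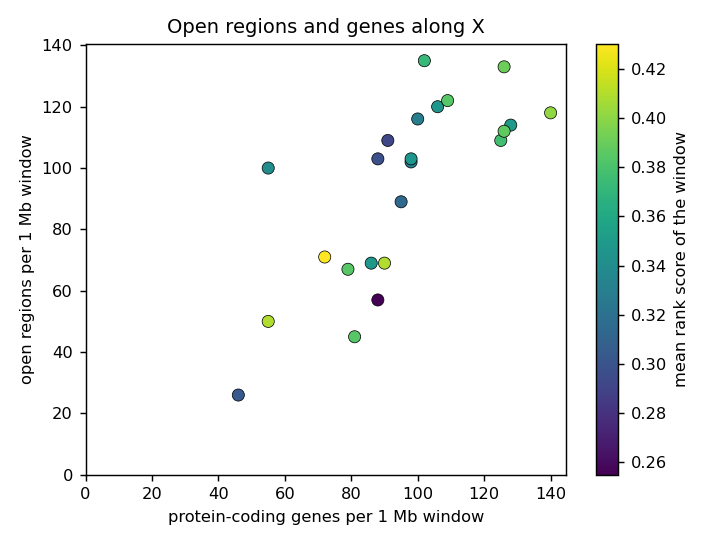
Open X regions (y axis) against protein-coding genes (x axis) in each full 1 Mb window, coloured by the window's mean rank score over 22 libraries. Windows range from 26 to 135 regions, and those with more genes hold more regions.

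X regions were found in more libraries at gene ends than elsewhere. A peak was present in all 22 libraries in 1122 X regions (52.2%, against 49.9% of autosomal regions), in 3 to 6 libraries in 287 (13.4%) and in 7 to 21 in 739 (34.4% against 37.0%). At gene ends 66.8% of X regions had a peak in every library, in gene bodies 39.1%, within 5 kb of a gene 27.4% and near no gene 22.9%. Widths followed the same order, with medians of 811, 571, 496 and 443 bp. The widest X region was chrX:10783624-10786988, at the neighbouring ends of Ant2 and sesB, which encode mitochondrial ADP/ATP carriers. The narrowest was chrX:658182-658333, at the end of the ubiquitin ligase gene SkpA, with a peak in 4 libraries.

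The strongest X region by median rank lay at the end of disco, a zinc finger gene of neural and appendage development (chrX:16216586-16217797). Among all peaks of a library its rank ran from 2 to 41, with a median of 12. Next came regions in the bodies of the nuclear receptor gene Hr4 (median rank 18.5) and of sd, the DNA-binding partner of Yorkie in Hippo signalling (24), and at the end of brk, a repressor of Dpp targets (32.5). The end of Cyp6v1, a cytochrome P450 gene, had a median rank of 35.5, and the shared ends of lin-52 and CG15771 had 46. The remaining 4 of the strongest 10 lay at the ends of moody, a receptor gene of the blood-brain barrier (50), of oc (63.5), of Smox with CG17982 and of CG32633, CG46311 and Tpst (64 each). The genes disco, Hr4, sd, brk, oc and Smox all encode transcription factors.

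The genes of the dosage compensation and sex determination list, 8 in all, were described in full. Of these, 6 had 11 regions between them, 10 of which were tested below and 5 of which had a peak in all libraries. The region over roX1 (chrX:3862393-3863022) lay at an end of the overlapping gene yin and could not be assigned to either. It had a peak in every library, with mean scores of 0.436 ± 0.119 (SD, n = 3) in w1118 at 1 week, 0.394 ± 0.0941 (SD, n = 3) at 5 weeks and 0.261 ± 0.12 (SD, n = 4) in attp2. The region over roX2 at an end of nod (chrX:11580256-11581060) also had a peak in every library. A small region at roX2 and CG11695 (chrX:11578918-11579127) had a peak in 7 libraries and no ranked peak in attp40 or LamB RNAi. It had ranked peaks in all 3 w1118 libraries of 5 weeks (0.364, 0.33 and 0.269) and in 1 of 1 week (0.233). In attp2 2 libraries had one, and in LamC RNAi 1 did.

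Sxl, the sex switch, had 4 regions. The one at its end (chrX:7096777-7098229), shared with CG4615, scored 0.898 on average in w1118 at 1 week and had a peak in every library. A body region at chrX:7095177-7096123 had one as well, and the regions at chrX:7074430-7074787 and chrX:7076290-7076477 had a peak in 15 and 3 libraries. The acetyltransferase gene mof had a region at either end, with peaks in 19 and 8 libraries, both shared with a neighbouring gene. The splicing factor gene snf had a region in all libraries, shared with Cdk7, and run had one in 17. The counters sisA and sc had none. None of the 10 tested regions passed in the age or knockdown comparisons, and run was lower in attp2 than in w1118 (difference −0.116 ± 0.0281, SE, limma adjusted p = 0.0349). That call was lost in 6 of the 7 fits that each left out a library, with adjusted p of 0.0208 to 0.137 by limma.

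X peaks were stronger in rank than autosomal peaks of the same library. The mean score of X regions was 0.357 ± 0.00564 (SD, n = 22) against 0.336 ± 0.00706 on the autosomes, and X was higher in 22 of 22 libraries (difference 0.021, permutation test by sign flips within libraries, two-sided, adjusted p = 3.33e-05 over 5 measures, from a p of 2e-05 that is the smallest 100000 resamples can give). The median score was 0.282 against 0.256, higher in 21 of 22 libraries at the same adjusted p. A ranked peak was present in 67.1% of X regions against 66.3%, higher in 17 of 22 libraries (adjusted p = 0.00112 by the same permutation test). The median fold enrichment of X peaks, 6.01 against the autosomal 5.99, was not shown to differ (adjusted p = 0.266, permutation test), and X was higher in 14 of 22. All libraries score the same regions, so these tests speak of the spread between libraries and not of other regions.

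These differences depended on the measure of strength. Ranked by fold enrichment in place of −log10 p, the mean score of X was higher by 0.00595 (adjusted p = 0.00363, permutation test) against 0.021 by p. The median score (difference 0.00309, adjusted p = 0.442) and the share of regions with a peak (0.285 percentage points, adjusted p = 0.253) then missed the threshold in the same test. With lists of 4000 peaks the median score was 0 on both, so that it could not be compared, and the share of X regions with a peak was 2.90 percentage points above the autosomal one.

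Peaks on X were concentrated in the strongest of 4 equal parts of each list. X held 17.7% to 18.8% of the whole list over the 22 libraries, and 20.5% ± 0.431 (SD, n = 22) of its strongest part, which ranged from 19.5% to 21.3%. In the second part its share was 17.5%, in the third 17.0% and in the weakest 17.3%. Of the 100 strongest peaks of a library, 18 to 27 lay on X, with a mean of 23.4, and of the 1000 strongest 20.3% to 21.9% did. The lowest library in the strongest part was above the 17.9% that X holds of all regions.

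**Figure D2:**
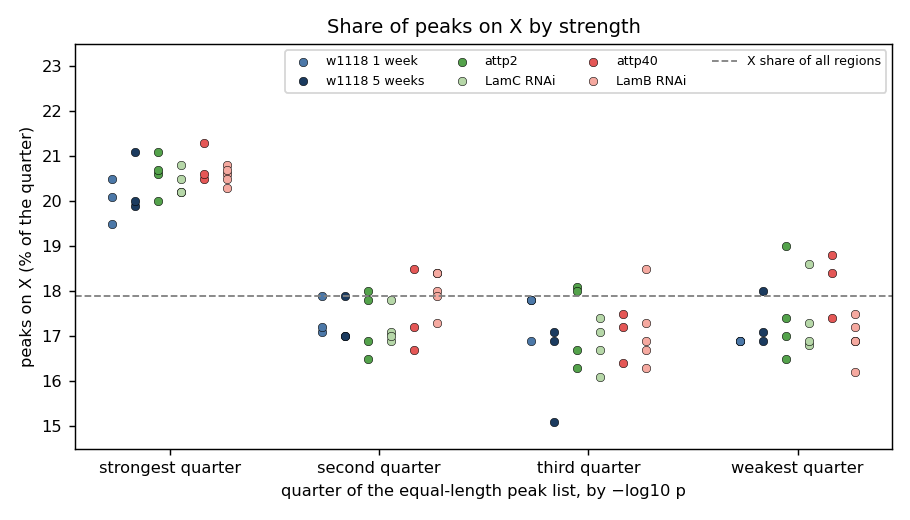
Share of peaks on X (y axis, %) in each of 4 equal parts of the equal-length list, from strongest to weakest by −log10 p (x axis), with 1 point per library coloured by group and a dashed line at the X share of all regions, 17.9%. All 22 libraries lie between 19.5% and 21.3% in the strongest part.

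The higher ranks of X lay at gene ends. X gene-end regions had a mean score of 0.484 ± 0.0136 (SD, n = 22) against 0.429 ± 0.0177, higher in 22 of 22 libraries by 0.0547. In gene bodies the scores were 0.235 and 0.225, higher on X in 21 of 22. Away from genes the order was the other way round: within 5 kb of a gene X scored 0.193 against 0.241, and near no gene 0.152 against 0.227, lower on X in 22 of 22 libraries each (adjusted p = 2.29e-05 for each of these 4 differences, permutation test by sign flips). This split by place was added after the data had been seen, and its tests too speak only of the spread between libraries. The share of regions with a ranked peak went the same way, with 81.2% against 79.0% at gene ends and 40.4% against 48.9% near no gene.

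**Figure D3:**
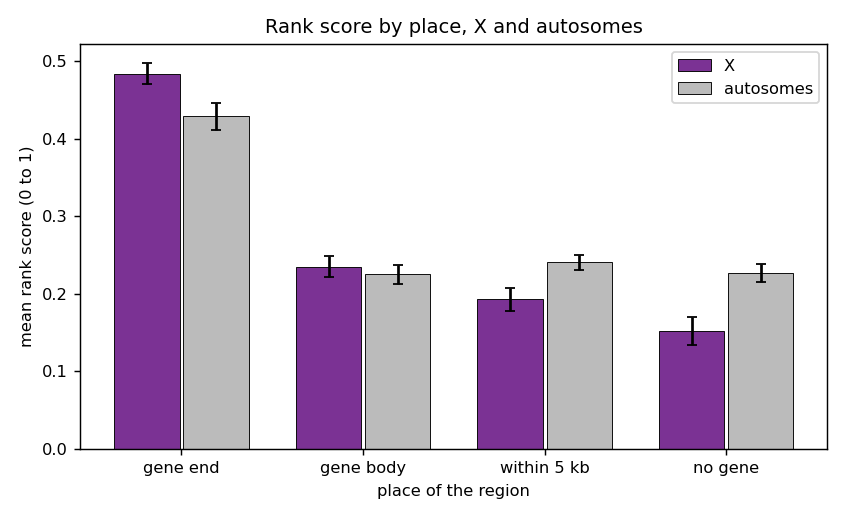
Mean rank score (y axis, from 0) of X regions and of autosomal regions by place (x axis), with bars for the mean over 22 libraries and error bars for the SD over libraries. X is higher at gene ends (0.484 against 0.429) and lower near no gene (0.152 against 0.227).

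Set against single arms, X scored above 2L (0.333), 3L (0.327) and 3R (0.337) in all 22 libraries and above 2R (0.346) in 21. At gene ends it was above each of these arms in 22 of 22 libraries, where the arms ran from 0.423 to 0.437. Chromosome 4, rich in the heterochromatin protein HP1 and carrying few genes, was above X, at 0.404 over all regions and 0.496 at gene ends, and X was higher in 1 and 4 libraries. Despite the high ranks of its gene ends, fewer of the X peaks of a library were at gene ends: 58.6% ± 1.91 (SD, n = 22) against 61.4% ± 1.87, lower in 22 of 22 libraries (adjusted p = 3.33e-05, permutation test). With lists of 4000 peaks that share was higher on X, by 0.649 percentage points (adjusted p = 0.00113, permutation test).

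None of 4 measures of the whole chromosome, taken per library in 6 comparisons, differed between groups past the threshold (24 exact permutation tests over libraries, two-sided, lowest adjusted p = 0.456). The groups were small: 3 libraries against 3 cannot go below an exact p of 0.1. In 1-week w1118 hearts the median X score exceeded the autosomal one by 0.0259 ± 0.00929 (SD, n = 3) and in 5-week hearts by 0.00689 ± 0.0105 (SD, n = 3), without overlap of the libraries (exact p = 0.1, the smallest possible). The X share of the list was 18.4% in attp40 and 17.9% in w1118 at 1 week, again without overlap at the same exact p. The number of X regions with a ranked peak was between 1389 and 1507 in all libraries. Libraries ranked the X regions alike: the correlation of X scores between libraries of a group was 0.875 to 0.955 and between groups 0.794 to 0.944, over 1752 regions that share their lists.

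Changes of single regions were tested on the rank score with limma, fitted to the 9848 regions with a score above 0 in at least 3 libraries and adjusted over all of them. Of the X regions 1752 were tested, 396 were not, and 184 of these had no ranked peak in any library. The age, attp2 and attp40 comparisons all use the same 3 w1118 libraries of 1 week, so the values of their regions are given side by side and their overlap is not a result.

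Between 1 and 5 weeks, 20 X regions (1.14% of those tested) changed in w1118 hearts, against 1.32% of all regions tested. Of these, 10 rose, against 0.609% of all regions, and 10 fell, against 0.711%. The share on X was thus near that of the genome. The median difference over X regions was 0, as over all regions. Of the 20, 11 lay in gene bodies and 6 at gene ends, where 56.3% of the tested X regions lay at gene ends. With only the w1118 libraries in the fit no X region passed, against 175 at an unadjusted p under 0.05 by limma (180 in the fit of all groups), so the calls rest on a spread shared with the other groups. Without replicate 3 of 1-week w1118 the count was 10, and without replicate 1 of 5-week w1118 it was 27.

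Among the regions that rose, the one with the lowest adjusted p was in the body of sdt, which encodes a scaffold of the Crumbs cell polarity complex (chrX:8205471-8206531). It had no ranked peak in the 3 libraries of 1 week and scores of 0.156, 0.194 and 0.251 at 5 weeks, and none in any of the other 16 libraries. Before the lists were cut, a peak was present there in 11 libraries. The rise was 0.2 ± 0.0247 (SE, limma adjusted p = 0.000119). The sdt region entered the test only through these 3 old libraries, and groups at 0 throughout add no spread. Its small SE and p are therefore partly built in. The same holds for the regions of CG43658, hiw with be, and rdgA, described below. A region in the body of CG12065 (chrX:8580749-8581890) scored 0 in all 3 libraries at 1 week and 0.354, 0.211 and 0.334 at 5 weeks, a rise of 0.299 ± 0.0429 (limma adjusted p = 0.000672). In the other groups it scored 0.195 in attp2 replicate 3, 0.0223 in attp40 replicate 1 and 0 elsewhere, while the uncut lists had a peak in 14 libraries. The old and young libraries did not overlap at either region.

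A region within 5 kb of CG11581 (chrX:14179258-14179753) went from 0, 0.0433 and 0 to 0.315, 0.367 and 0.26 (rise 0.299 ± 0.0565, limma adjusted p = 0.00709). At the shared ends of Sec22, a vesicle fusion gene, and CG43867 (chrX:807283-808770) the scores were 0, 0 and 0.0175 at 1 week and 0.0894, 0.179 and 0.286 at 5 weeks, a rise of 0.179 (limma adjusted p = 0.00553). CG3842 rose by 0.153 (adjusted p = 0.00769, limma). The calls at these 5 regions held in each fit that left out a library of the comparison.

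The largest rise was at the shared ends of CG15199 and CG15202 (chrX:11141798-11142453), from 0, 0.242 and 0 to 0.438, 0.616 and 0.465. It measured 0.425 ± 0.106 (limma adjusted p = 0.0478), and in 5 of 6 fits that left out a library it was lost, with adjusted p of up to 0.195. Other 1-week groups had ranked peaks there: attp2 0.127 to 0.216, attp40 0.328, 0 and 0.454, and LamB RNAi 0.267 to 0.563. Age and other differences of the young w1118 libraries cannot be told apart at this region. The shared ends of CG16903 and Unc-76 (chrX:2080189-2080884) were already strong, at 0.675, 0.756 and 0.493, and reached 0.861, 0.866 and 0.822 (rise 0.208 ± 0.0512, limma adjusted p = 0.0434). There the attp2 libraries of 1 week stood at 0.831, 0.903, 0.851 and 0.789, as high as the old ones. The remaining 3 risen regions, in the bodies of CG14441 (0.219), CG43658 (0.101) and hiw with be (0.0993), had no ranked peak in 1-week w1118. In the uncut lists 16, 10 and 6 libraries had a peak at them. All 4 of CG16903, CG14441, CG43658 and hiw lost the call without some of the libraries.

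The largest fall was in the body of ct, a homeodomain factor gene of sense organs, kidney tubules and other tissues (chrX:7651418-7652185). It scored 0.689, 0.458 and 0.597 at 1 week and 0.117, 0.00495 and 0.0535 at 5 weeks, and the groups did not overlap. The score fell by 0.523 ± 0.112 (SE, limma adjusted p = 0.0189), and without 4 of the 6 libraries, left out singly, the difference missed the threshold, with adjusted p of up to 0.0903. It was the only one of 5 regions at ct to pass. The others differed by −0.138 (limma adjusted p = 0.128), −0.0791 (0.0624), −0.077 (0.674) and 0.149 (0.782), so the change did not extend detectably over the gene. The attp2 libraries scored 0.427, 0.511, 0.0769 and 0.405 there, closer to the young hearts except in replicate 3.

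At the end of Klf15, a zinc finger gene needed in fly nephrocytes (chrX:4771397-4772285), the young libraries had 0.521, 0.251 and 0.417 and the old 0, 0.0975 and 0, without overlap. The score fell by 0.364 ± 0.0823 (limma adjusted p = 0.026), a call lost in 4 of 6 fits that left out a library, with adjusted p of up to 0.121. In attp2 at 1 week the scores were 0, 0, 0 and 0.0641, which differed from w1118 of the same age by −0.38 ± 0.077 (limma adjusted p = 0.00933, lost without w1118 replicate 1 or 3), and in attp40 0.356, 0.142 and 0.238. The scores of attp2 at 1 week thus lay in the range of the old w1118 hearts. Klf15 is a nephrocyte marker, and nephrocytes lie along the heart. Of 4 X-linked nephrocyte markers 3 had regions, 18 in all, and Cubn had none. The summed score over the 18 was 5.03 to 5.72 in w1118 at 1 week, 4.69 to 5.36 at 5 weeks, 4.84 to 5.70 in attp2 and 5.62 to 6.61 in attp40. These 18 include 2 regions inside kirre that also lie at w, which w1118 flies lack in part. Without them, in a count added after the data had been seen, the sums were 4.33 to 4.77 in w1118 at 1 week, 4.00 to 4.43 at 5 weeks, 3.92 to 4.33 in attp2 and 4.22 to 5.17 in attp40. The part of nephrocyte number in the Klf15 result was not tested.

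At 6 of the 10 fallen regions, Klf15 and CG44422 (described below) among them, no old library had a ranked peak, or 1 had a weak one. In the body of sog, which encodes a BMP antagonist (chrX:15614853-15615747), the young scores were 0.303, 0.275 and 0.181 and the old 0, 0.0256 and 0 (difference −0.245 ± 0.0393, limma adjusted p = 0.0018). A region near no gene (chrX:4596348-4596970) went from 0.27, 0.432 and 0.157 to 0 in all 3 libraries (difference −0.286 ± 0.0452, limma adjusted p = 0.00165). A region shared by CG46306 and CG13004 (chrX:16832167-16832464) went from 0.316, 0.186 and 0.184 to 0 in all 3. The body of rdgA, a diacylglycerol kinase gene of photoreceptor signalling (chrX:8936651-8937029), went from 0.146, 0.132 and 0.108 to 0 in all 3 (difference −0.129 ± 0.0211, limma adjusted p = 0.00186).

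At the 4 regions of sog, CG46306, rdgA and near no gene, the 1-week control libraries of the other strains were low too. At sog all attp2 libraries scored 0, and attp40 0, 0.139 and 0. Near no gene only attp2 replicate 1, at 0.093, had a ranked peak among the 7 control libraries. At rdgA no library outside 1-week w1118 had one. So at these 4 regions the 1-week w1118 libraries stood apart from the old libraries and also from the 1-week controls of the other strains, and age and other differences of those 3 libraries cannot be told apart there.

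At 3 other regions the fall set old w1118 apart from the 1-week controls of every strain. At the end of CG9360, inside the span of the wing cuticle gene m (chrX:11764257-11765457), young w1118 scored 0.729, 0.595 and 0.66 and old 0.271, 0.273 and 0.443, while attp2 scored 0.904, 0.802, 0.813 and 0.804 (difference −0.333 ± 0.0541, limma adjusted p = 0.00185). The call held in each fit that left out a library. In the body of norpA, which encodes the phospholipase C of phototransduction (chrX:4323909-4325563), the scores were 0.842, 0.859 and 0.892 at 1 week and 0.67, 0.734 and 0.611 at 5 weeks (difference −0.192 ± 0.0401, limma adjusted p = 0.0147, lost without replicate 3 of either age, with adjusted p of up to 0.109). At the ends of CG1628 and CG43347 (chrX:10601180-10602818) they were 0.706, 0.633 and 0.659, against 0.322, 0.478 and 0.159 (difference −0.346 ± 0.0748, limma adjusted p = 0.0191, lost in 3 of 6 such fits, with adjusted p of up to 0.127). There the lowest control, attp2 replicate 3 at 0.483, lay barely above the highest old score. Less clearly, the region within 5 kb of CG44422 fell by 0.275 (limma adjusted p = 0.037), and its call ended in 5 of 6 such fits.

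**Figure D4:**
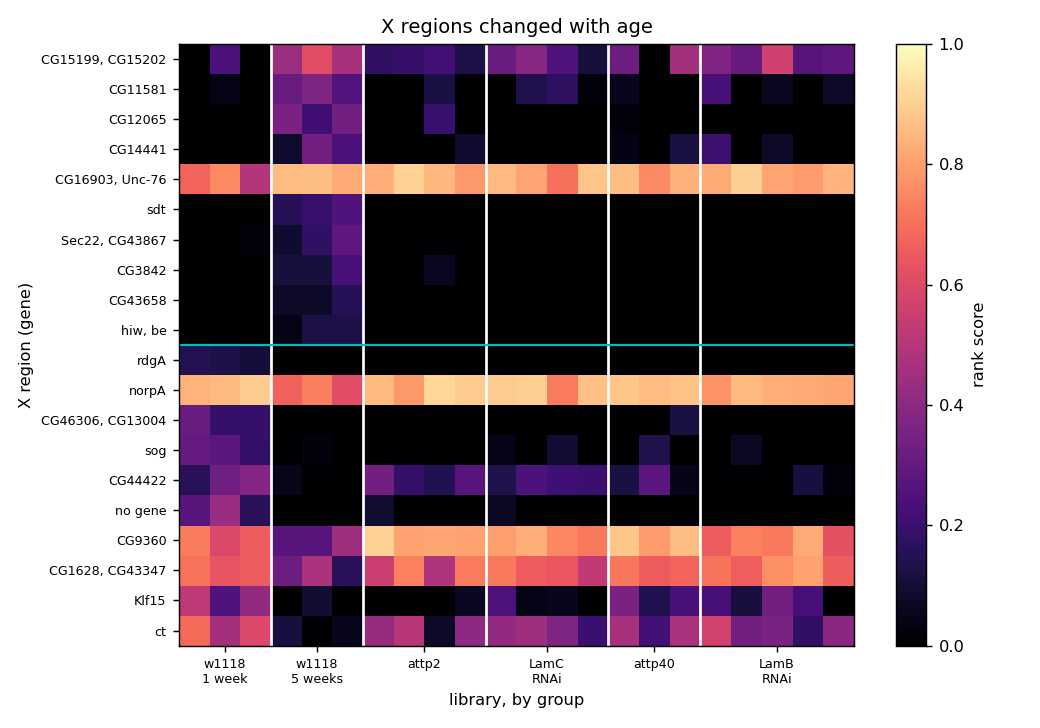
Rank score (colour, 0 to 1) of the 20 X regions that changed with age, in rows by gene, in each of the 22 libraries, in columns by group; the line separates the 10 risen regions from the 10 fallen. The sdt, CG43658 and hiw regions have a ranked peak in 5-week w1118 and in no other group, and the rdgA region in 1-week w1118 and in no other. Weaker deposited peaks, below the cut of the ranked lists, are not shown.

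Counted by presence alone, 19 X regions had a ranked peak in every 5-week library and in no 1-week library of w1118 (0.885% of X regions, against 0.84% of all regions), and 31 the reverse (1.44%, against 0.915%). In the deposited lists of unequal length these counts were 29 (against 1.65% of all regions) and 16 (against 0.906%). The order of gain and loss on X therefore turned with the length of the lists.

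In the knockdowns, a single X region changed with LamC RNAi (0.0571% of X regions tested, against 0.152% of all regions), and by limma 97 X regions had an unadjusted p under 0.05. It lay near no gene at the left tip of the chromosome (chrX:95371-95831). LamC RNAi libraries scored 0.324, 0.197, 0.274 and 0.352 and their attp2 controls 0.00554, 0, 0 and 0.0323. The groups did not overlap, and the rise was 0.277 ± 0.029 (SE, limma adjusted p = 1.4e-05), kept in each fit that left out a library. All 6 w1118 libraries scored 0, and the highest of the attp40 and LamB RNAi libraries was 0.0422. Before the lists were cut, 14 libraries over all groups had a peak there. The change differed between the knockdowns by 0.271 ± 0.0417 (limma adjusted p = 0.00379), the only X region to do so, against 0.0711% of all regions. This contrast was tried under other settings only after the data had been seen. The next regions for LamC, in the body of ec (0.168 ± 0.0385, adjusted p = 0.106 by limma) and near no gene at chrX:1063118-1063730 (0.243 ± 0.0623, adjusted p = 0.227 by limma), did not pass.

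With LamB RNAi a single X region changed too (against 0.183% of all regions), and 93 had an unadjusted p under 0.05 by limma. It lay at an end of y, which acts in cuticle pigmentation and is a common visible marker (chrX:361313-361928). LamB RNAi libraries scored 0, 0, 0.15, 0 and 0.161 and attp40 controls 0.488, 0.321 and 0.526, without overlap. In the other groups all 14 libraries scored 0.327 or more. The uncut lists had a peak there in 21 libraries, so most of the LamB RNAi scores of 0 mark peaks below the cut. The score fell by 0.383 ± 0.0706 (SE, limma adjusted p = 0.0236). The call was lost without attp40 replicate 1 or 3 or LamB RNAi replicate 1 or 4, with adjusted p of 0.00968 to 0.144 over these fits. The allele of y in each cross is not given in the labels. The shared ends of su(sable) and CG13367 (−0.426 ± 0.102, adjusted p = 0.119 by limma) and of Tsp3A and Seipin (0.113 ± 0.0297, adjusted p = 0.185 by limma) did not pass.

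No X region was called both with age and with a knockdown, among 20 called with age (1.32% of all regions passed) and 1 with each knockdown, so an overlap could hardly have been seen. Over all regions, 0 of the 15 called with LamC and 1 of the 18 called with LamB were among the 130 called with age. The comparisons of age with LamC and of age with LamB share no library. With only the libraries of the comparison in the fit, no X region passed for LamC (79 at an unadjusted p under 0.05 by limma) or for LamB (72). By presence, 1 X region had a ranked peak in every LamC RNAi library and none of its controls (against 0.15% of all regions) and 0 the reverse (against 0.0831%). For LamB RNAi the numbers were 1 (against 0.125%) and 2 (against 0.166%). In the deposited lists they were 0 and 0 for LamC RNAi (against 0.0748% and 0.0582%) and 2 and 1 for LamB RNAi (against 0.333% and 0.0333%).

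More X regions differed between strains. Between attp2 and w1118 at 1 week, 22 X regions differed (1.26%, against 1.46% of all regions), 5 higher and 17 lower in attp2 (against 0.457% and 1.01%). Between attp40 and w1118, 28 did (1.60%, against 1.46%), 14 higher and 14 lower in attp40 (against 0.741% and 0.721%). Between the crosses, 2 X regions differed (against 0.193%). Both shares of X regions were near those of the genome. Of the 22 and 28, 12 and 16 lay in gene bodies. With only the libraries of each comparison in the fit, 5 and 1 passed. By presence, 4 X regions had a ranked peak in every attp2 library and no w1118 library (against 0.208% of all regions) and 13 the reverse (against 0.673%). For attp40 against w1118 the numbers were 16 each way (against 0.74% and 0.923%), and for attp40 against attp2 they were 16 and 1 (against 0.391% and 0.224%). In the deposited lists these counts were 3 and 24 for attp2 against w1118 (against 0.15% and 1.36%), 6 and 64 for attp40 against w1118 (against 0.208% and 3.13%) and 2 and 4 for attp40 against attp2 (against 0.125% and 0.432%). Between attp40 and attp2 the order of these counts therefore turned with the length of the lists. The files of each strain carry their own dates, in different months except for attp40 replicate 3, which stands apart from the other attp40 libraries. What the dates mark is not given, so strain and date cannot be told apart.

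The w gene was set against the strain labels, since w1118 is a partial deletion of w, a pigment transporter gene. At its far end, also inside the span of kirre (chrX:2796445-2797149), the w1118 libraries scored 0, 0 and 0.109 at 1 week and 0.0395, 0.0756 and 0 at 5 weeks. In attp40 the scores were 0.487, 0.482 and 0.547, without overlap (0.469 ± 0.0991 higher, limma adjusted p = 0.0127). That call was lost without attp40 replicate 3 or w1118 replicate 1 or 2, with adjusted p of up to 0.0617. In LamB RNAi they were 0.425 to 0.632, in LamC RNAi 0.24 to 0.462 and in attp2 0.00518, 0.326, 0.434 and 0.478. So attp2 replicate 1 was as low as w1118 at this region, and the region was not called between attp2 and w1118. It does not separate every library by strain. In the lists before the cut, this region had a peak in all 22 libraries, those of w1118 included, and so had the other region of w. The scores of 0 in w1118 thus mark peaks below the cut.

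The region in the body of CCKLR-17D3, a receptor gene for the peptide drosulfakinin (chrX:18771893-18772421), showed the clearest strain difference by adjusted p. It scored 0.611, 0.528 and 0.521 in 1-week w1118 and 0.547, 0.688 and 0.521 in 5-week w1118. In attp2 it scored 0.911, 0.966, 0.853 and 0.916 and in attp40 0.936, 0.955 and 0.902, and no library of the crosses was under 0.853. It was higher by 0.358 ± 0.0358 in attp2 (limma adjusted p = 1.79e-06) and by 0.378 ± 0.0383 in attp40 (limma adjusted p = 2.26e-06). It was the X region that passed between attp40 and w1118 also in the fit of those libraries alone.

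The body of sev, a receptor tyrosine kinase gene of photoreceptor fate (chrX:11081045-11082259), went the other way. It scored 0.312, 0.503 and 0.387 in 1-week and 0.219, 0.463 and 0.491 in 5-week w1118. Of the 16 libraries from crosses, LamC RNAi replicate 1 had 0.0208 and the rest 0. The sev region entered the test only through the w1118 libraries, so its small SE and p are partly built in. Before the lists were cut, 13 libraries over all groups had a peak there. The difference was −0.401 ± 0.0512 in attp2 (limma adjusted p = 5.32e-05) and −0.401 ± 0.0548 in attp40 (limma adjusted p = 0.000147). A body region of spri (chrX:10561352-10561830) was lower in both, with differences of −0.286 (limma adjusted p = 4.73e-05) and −0.28 (0.000147), as was one of CG32772, with −0.438 (0.00041) and −0.373 (0.00592). Near no gene, chrX:23216929-23217444 stood at 0.749, 0.935 and 0.945 in w1118 and at 0.049, 0.158, 0 and 0.386 in attp2 and 0.386, 0.0914 and 0.167 in attp40. This was the largest difference in score, −0.728 ± 0.155 (limma adjusted p = 0.0141) and −0.661 ± 0.166 (limma adjusted p = 0.0454). The first was lost without w1118 replicate 2 or 3 and the second in each fit that left out a library. At this region LamB RNAi replicate 1 scored 0.867, inside the w1118 range, and the other RNAi libraries 0 to 0.48. It does not separate every library of the crosses from w1118.

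Among the regions higher in attp2, the body of nAChRalpha3, an acetylcholine receptor subunit gene (chrX:8294033-8296087), scored 0.374, 0.494 and 0.274 in w1118 and 0.946, 0.725, 0.847 and 0.719 in attp2 (0.428 ± 0.0782, limma adjusted p = 0.00325). The groups did not overlap, and the call held in each fit that left out a library.

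Called between attp40 and w1118 and not between attp2 and w1118 were regions at the ends of su(sable) and CG13367 (0.477 higher than in w1118, limma adjusted p = 0.0329), in the body of Bx, a LIM-only gene (0.453, 0.0234), near no gene at chrX:3356060-3356432 (0.35, 0.00739) and in the body of Cyp18a1, an ecdysone-inactivating enzyme gene (0.29, 0.039). Of these 4, the difference between attp40 and attp2 itself was called for Cyp18a1. Leaving out 1 library ended the su(sable) call in 6 of 6 fits, the Bx and Cyp18a1 calls in 5 of 6 each and the call at chrX:3356060-3356432 in none. Lower in attp40 was a region within 5 kb of wupA, the troponin I gene of muscle (chrX:18121408-18122162), which scored 0.222, 0.407 and 0.182 in w1118 and 0 in all attp40 libraries (−0.27 ± 0.0552, limma adjusted p = 0.00995), and in attp2 0.0867, 0, 0 and 0. That call was lost without w1118 replicate 2. This region too entered the test only through w1118 libraries. The 3 regions at wupA itself were not among those called.

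The attp40 and attp2 controls differed at CG10962 and Cyp18a1. The end of CG10962 (chrX:8972867-8973524) scored 0 in all 4 attp2 libraries and 0.291, 0.291 and 0.315 in attp40 (0.299 ± 0.0465, limma adjusted p = 0.00331). The uncut lists had a peak there in 21 of the 22 libraries, so most of these scores of 0 mark peaks below the cut. The body of Cyp18a1 (chrX:18691319-18692079) scored 0.0313, 0, 0.0957 and 0.024 against 0.341, 0.404 and 0.378 (0.337 ± 0.0667, limma adjusted p = 0.0355). The Cyp18a1 call ended in 6 of 7 fits that left out a library. The LamB RNAi libraries, whose controls are attp40, lay above the attp2 range at both, with 0.0231 to 0.309 at CG10962 and 0.277 to 0.528 at Cyp18a1.

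**Figure D5:**
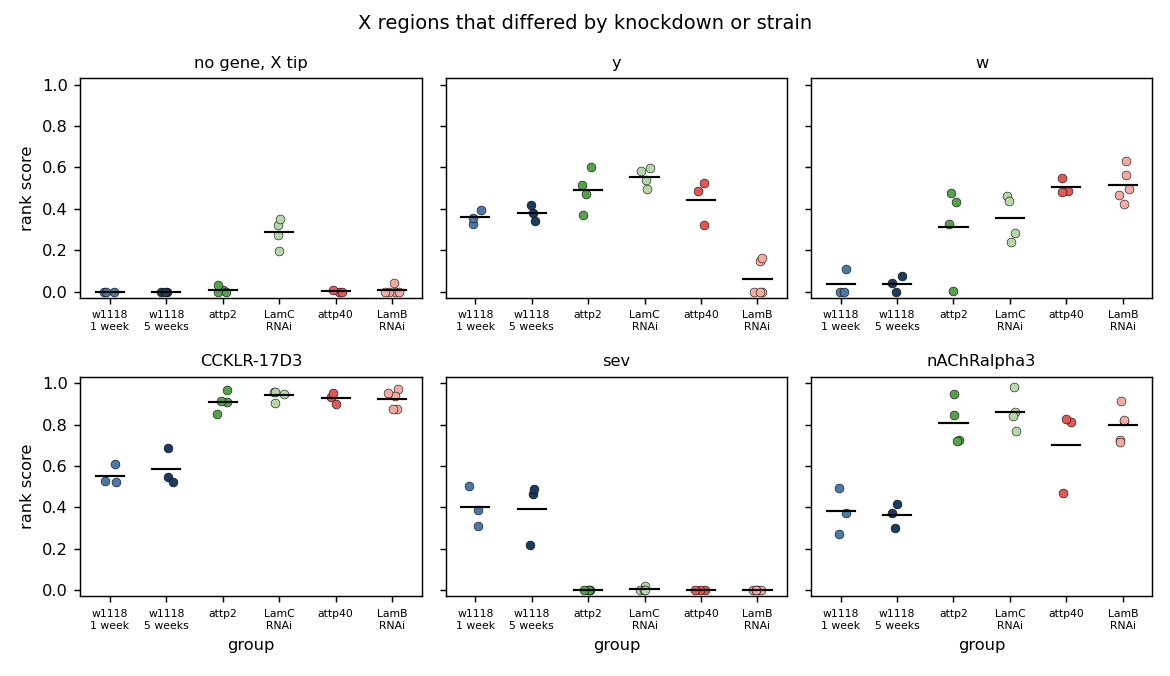
Rank score (y axis, 0 to 1) of 6 X regions in each library (points) by group (x axis), with a line at each group mean. The region at the X tip is high in LamC RNAi libraries, the y end is low in LamB RNAi libraries, the CCKLR-17D3 and w regions are low in w1118, sev is high in w1118, and nAChRalpha3 is higher in attp2 than in 1-week w1118; at w, attp2 replicate 1 is as low as w1118.

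The gene lists, grouped by role, are described by the mean rank score of their regions, with no test between lists. Genes of stress and protein quality control (7 genes, 11 regions) had a mean rank score of 0.652, transcription factor genes (24 genes, 21 with 75 regions) 0.519, chromatin and nuclear pore genes (10 genes, 27 regions) 0.513 and metabolic and mitochondrial genes (11 genes, 18 regions) 0.504. All X regions had 0.357. Genes of muscle and cytoskeleton (14 genes, 46 regions) stood near that, at 0.363, and ion channels and gap junctions (13 genes, 9 with 39 regions) below it, at 0.225. Signalling genes (20 genes, 18 with 48 regions) had 0.475 and polarity genes (4 genes, 25 regions) 0.247. These scores are for whole gene spans, and long genes hold more weak body regions.

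Few list members changed. With age, of 69 tested transcription factor regions 2 fell (ct and Klf15) and of 44 signalling regions 1 fell (sog), against 0.711% of all regions. Of 19 polarity regions 1 rose (sdt), against 0.609%. Of 28 regions in the channel list 1 fell, that of norpA, which encodes a phospholipase and no channel, and no region of a channel or gap junction gene passed. None of the 33 muscle, 23 chromatin, 17 metabolic and 9 stress regions tested passed with age or with a knockdown. At the shares over all regions (1.32% with age, 0.152% with LamC and 0.183% with LamB), lists of this size would hold few calls or none. The median age differences of these lists lay between −0.0345 for channels and 0.017 for polarity genes, against 0 over all regions. In attp40 against w1118, regions of the integrin gene if (0.254 ± 0.0637, limma adjusted p = 0.0453) and of the kinase gene sgg (0.114 ± 0.0245, limma adjusted p = 0.0147) were higher, and both calls were lost without some single libraries.

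Some X-linked markers of other cell types had ranked peaks in these hearts as well. Markers of neurons had 36 regions at 7 of 10 genes, 12 of them with a peak in every library, and elav reached a mean score of 0.961 at its strongest region. As a whole the neuron list was below X regions in general, with a mean score of 0.225 against 0.357. Of its regions 7 had no ranked peak in any library, the only region within 500 bp of nAChRalpha7 among them, and fne, eag and cac had no region. Another region, within 5 kb of nAChRalpha7 and outside the list, had a ranked peak in all 3 libraries of 1-week w1118. Fat body and oenocyte markers had 5 regions at 4 of 5 genes, hemocyte and humoral markers 5 at 3 of 3 and germline markers 7 at 5 of 6. No region of these 4 lists passed with age or a knockdown (against 1.32%, 0.152% and 0.183% of all regions), where each list had only 5 to 24 tested regions. The summed score of the fat body list was 1.75 to 1.79 in w1118 at 1 week and 1.94 to 2.15 at 5 weeks, and 2.20 to 3.18 in LamB RNAi against 1.98 to 2.62 in attp40. That of the neuron list was 7.40 to 9.61 at 1 week and 6.32 to 7.77 at 5 weeks, and of the hemocyte list 1.99 to 2.25 and 1.42 to 2.06. The part of such cells in the regions that changed was not tested.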

How the data were processed

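ATAC-seq was done on isolated hearts, 22 libraries in 6 groups by their labels. The submitters' processing notes name MACS2, Bowtie2, Picard and SAMtools and the build dm6. Sources used here give no version, setting, filter or read shift for them. The deposited MACS2 peak lists, 1 per library, give the authors' fold enrichment over background (a ratio), −log10 p and −log10 q of each peak. The lists hold no read counts, so depth is unknown and no counting interval is given; stronger p in deeper libraries is why only ranks within a library were compared.

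Peaks were merged with bedtools 2.31.1 (overlap of at least 1 bp) and each library's strongest 8491 peaks by −log10 p ranked. Genes came from the NCBI RefSeq annotation of the assembly behind dm6, which gives no strand here, and coordinates are 1-based. Region scores were fitted with limma 3.58.1 (R 4.3.3; all groups in 1 model, empirical Bayes with a trend, Benjamini-Hochberg over 9848 regions, threshold 0.05). X was set against autosomes with a permutation test of 100000 sign flips, and groups with exact permutation tests (scipy 1.17.1 under Python 3.11.15, with pandas 2.3.3 and numpy 2.4.6). The fits were tried on simulated data with shifts planted in regions of middling mean score, so regions near 0 were not covered. Over the 6 comparisons 17.5% to 27.6% of shifts of 0.2 and 78.5% to 90.3% of shifts of 0.4 were recovered. False calls made up 3.29% to 6.86% of calls. Replicate numbers were not taken as pairs, since no label says that they are. Same-numbered libraries deviated together with correlations of −0.274 to 0.213 over 19 pairs. All were above 0 for age (0.0238 to 0.147), LamB (0.0841 to 0.213) and attp40 against w1118 (0.0214 to 0.112). They ran from −0.274 to 0.0382 for LamC and from −0.127 to 0.0339 for attp2 against w1118. For attp40 against attp2 they ran from −0.0634 to 0.0215. A weak pairing was thus not excluded.

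Named were the X regions past the threshold (up to 12 a direction, otherwise the 12 largest), the 3 with the lowest p where fewer passed, the passing or lowest-p regions of 15 lists of 140 X genes, the dosage compensation list, the 10 strongest regions and the extremes of width and density; 1 of these regions is not reported here. The regions, lists and tests were chosen with earlier results of these data known; the heart markers and the split by place were added after seeing the data. No genome sequence was used here, so no motif was searched.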

Additional observations from a re-analysis of the deposited data

Results flagged for a closer look

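Among attp2 libraries, replicate 4 had the lowest X share of the equal-length list, 17.8%, far below the other 3 for the range of the group. Among LamB RNAi libraries, replicate 4 had the highest X share, 18.8%, and also the highest excess of the median X score over the autosomal one, 0.0662, each far above the other 4. These are 3 of 34 sets of library values examined in this way, and chance marks about 1 in 20. The X tip region at chrX:95371-95831 scored higher with LamC RNAi, and its LamC and LamB changes differed by 0.271 (SE 0.0417, limma adjusted p = 0.00379, the interaction in 1 fit).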

How the results depend on the processing

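Counts of changed X regions depended on the libraries in the fit, on library weights and on the list length. In fits of only the 2 groups compared, 0 X regions passed limma for age, LamC, LamB and attp40 against attp2 (175, 79, 72 and 156 at an unadjusted p under 0.05), 5 for attp2 and 1 for attp40 against w1118. Those fits were also run with the replicate number as a block. Then 0 passed for age, LamC, LamB, attp2 against w1118 and attp40 against attp2 (176, 66, 75, 200 and 168 unadjusted). For attp40 against w1118 1 passed. Whether the numbers pair the libraries is not given in the labels. With library weights the counts were 36 for age, 41 and 61 for attp2 and attp40 against w1118, 10 for attp40 against attp2 and 3 for LamC minus LamB. With lists of 4000 peaks, where 942 X regions were tested, they were 4, 6 and 6 for age and the strains and 0 for LamC, LamB, attp40 against attp2 and LamC minus LamB (46, 29, 48 and 38 unadjusted). Attp40 against attp2 gave 1 when ranked by fold enrichment or among X peaks alone, and LamC minus LamB gave 2 in both and with −log10 q of at least 5. Left-out libraries moved the counts from 10 to 27 for age, 1 to 2 for LamC, 0 to 3 for LamB, 13 to 26 for attp2 and 17 to 25 for attp40 against w1118 (both lowest without w1118 replicate 3), 1 to 7 for attp40 against attp2 and 1 to 4 for LamC minus LamB. Of the named calls, those kept in each left-out fit were 10 of 20 for age, 1 of 1 for LamC, 0 of 1 for LamB, 8 of 18 for attp2, 9 of 25 for attp40 and 1 of 2 for attp40 against attp2.

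Measures of the whole X changed sign in places, all without passing a test between groups. With lists of 4000 peaks the X share became 0.108 higher with age, 0.203 higher with LamB RNAi and −0.0958 for attp40 against attp2 (percentage points); X regions with a peak became 6.33 more with age, −2.0 with LamC, 2.13 with LamB and 3.25 in attp2; the LamB gene-end share became −0.447. The LamB difference in median X excess became −0.00303 with −log10 q of at least 5, −0.00204 with regions from equal-length lists and −0.00441 with regions in 6 or more libraries, and that of attp2 −0.000237 with the q limit. Left-out libraries gave −0.00661 to 0.00626 and −0.00212 to 0.0097 for these, −0.913 to 1.02 for the LamC and −0.873 to 0.0477 for the attp2 gene-end share, and −27 to 1.5 X regions for age. For X against autosomes, ranking by fold enrichment gave 0.00309 for the median score, 0.285 for the share with a peak and 0.0543 for the median fold enrichment (adjusted p = 0.00363, permutation test); lists of 4000 gave 0, a gene-end share 0.649 higher and a median fold enrichment of −0.0137. Gene-end limits of 200 and 1000 bp put 47.8% and 56.3% of X regions at gene ends. The causes were not tested. Depth could not be judged.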
